A study of Mus musculus with 9 samples.

Results

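The acyl-CoA dehydrogenases and the electron transfer flavoproteins serve the oxidation of fatty acids and of branched-chain amino acids. Here 10 of their genes were followed: Acadvl, Acadl, Acadm, Acads, Acadsb, Acad10, Acad11, Etfa, Etfb and Etfdh. They were chosen by name, as every probe set annotated to 1 of these symbols alone. That gave 14 probe sets, and the 10 genes are among 18193 genes that could be named and tested. The liver samples came from male mice aged 14 weeks on regular chow. The db/db group (BKS.Cg-Leprdb, n = 4) is mutant for the leptin receptor and was sampled once the animals had become obese and diabetic with fatty liver disease. The BKS group (C57BL/KSlepr+/+, n = 5) consisted of littermates with the intact receptor gene. Both groups share the BKS background. The labels do not say that each sample is a different animal, so each p-value reflects only how far these samples differ among themselves, which may be technical.

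Each acyl-CoA dehydrogenase takes a pair of electrons from an acyl-CoA onto its bound FAD. That reaction opens a round of beta-oxidation, and it is also a step within the breakdown of branched-chain amino acids. The electron transfer flavoprotein (ETF), a dimer of the Etfa and Etfb products, collects these electrons in the mitochondrial matrix. ETF-ubiquinone oxidoreductase, the Etfdh product, passes them in the inner membrane to ubiquinone and so to the respiratory chain. Loss of any of these 3 genes in people blocks many dehydrogenases at once, a disease known as multiple acyl-CoA dehydrogenase deficiency. The liver relies on the pathway in fasting.

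Values below are probe set signals as log2(value + 16) after quantile normalization over the 9 arrays, unless a sentence says otherwise. Signals of different probe sets cannot be set against each other, so levels are compared only between arrays. The arrays fell into 2 sets by the control signal for 18S ribosomal RNA, which the labels do not mention. In the set of 4 arrays with high signal (db/db 3 and 4, BKS 4 and 5) the 18S signal read 1872.7 to 19770.7, and in the other 5 arrays (db/db 1 and 2, BKS 1, 2 and 3) 22.2 to 43.5. Both groups are in both sets, so the differences of the genes that rose are also given within them. By limma 0 of 6 measured hepatocyte markers were called (1 lower at an unadjusted p under 0.05), and their summed signal ran from 220282 to 242370 in db/db liver and from 230765 to 248569 in BKS liver. The 4 probe sets of Lepr were not called (limma adjusted p 0.335 to 0.881). Because the mutant allele is known to be misspliced rather than lost, their signal does not check the genotype labels. RNA was taken from whole liver, where fewer cells of a type and less RNA per cell cannot be told apart.

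Of the 10 genes 4 rose in db/db liver, none fell and 6 were not called (limma, Benjamini-Hochberg adjusted p over all genes, threshold 0.05). They were Etfdh, the last carrier before ubiquinone (1.71-fold), Acadl, the long-chain dehydrogenase (1.5-fold), Acadm, the medium-chain dehydrogenase (1.42-fold), and Acad11 (1.38-fold). Over all 18193 genes 526 were called higher in db/db liver, or 2.89%, and 473 were called lower, or 2.60%. The same 4 members had every db/db array above every BKS array, and 860 of all genes did, or 4.73%. The median difference of the 10 members was 0.48 on the log2 scale, against -0.0022 for all genes tested. Of the members 9 had a positive difference, as had 49.7% of all genes. All 4 calls rest on quantile normalization and on the intensity trend of eBayes, without which 0 were called (6 higher at an unadjusted p under 0.05): with the arrays centred on their medians, or with no step beyond the authors' scaling, limma called 0 of 10 members, at median differences of 0.56 and 0.49. At an unadjusted p under 0.05, 7 members were higher and 0 lower with quantile normalization, 5 and 0 with median centring, and 6 and 0 without normalization. The share of all genes at that unadjusted threshold was not counted, so these counts, and those of the lists below, have no background beside them.

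The promoters of the 4 genes that rose are shown because the genes moved in the same direction and a regulator of fatty acid oxidation, the PPAR alpha and RXR dimer, is known to bind paired copies of a short core motif. Each line holds the 250 bases before the annotated start, 5′ to 3′ on the gene's strand, from RefSeq for GRCm38.p6. Capitals mark matches, on either strand, to the core motif AGGTCA or to the GC box GGGCGG. Acadl lies on the minus strand (chr1:66863310-66863559), Acadm on the minus strand (chr3:153944644-153944893), Acad11 on the plus strand (chr9:104063474-104063723) and Etfdh on the minus strand (chr3:79628768-79629017).
Acadl: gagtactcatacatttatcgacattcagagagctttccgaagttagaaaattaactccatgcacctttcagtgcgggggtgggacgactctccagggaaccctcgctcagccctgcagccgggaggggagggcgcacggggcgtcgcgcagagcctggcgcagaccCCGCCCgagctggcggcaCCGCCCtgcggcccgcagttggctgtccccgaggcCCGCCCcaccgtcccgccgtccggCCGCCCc
Acadm: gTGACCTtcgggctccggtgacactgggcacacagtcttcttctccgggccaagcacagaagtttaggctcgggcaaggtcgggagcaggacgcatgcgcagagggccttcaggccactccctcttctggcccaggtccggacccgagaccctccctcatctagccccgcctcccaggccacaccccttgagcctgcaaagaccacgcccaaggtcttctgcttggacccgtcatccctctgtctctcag
Acad11: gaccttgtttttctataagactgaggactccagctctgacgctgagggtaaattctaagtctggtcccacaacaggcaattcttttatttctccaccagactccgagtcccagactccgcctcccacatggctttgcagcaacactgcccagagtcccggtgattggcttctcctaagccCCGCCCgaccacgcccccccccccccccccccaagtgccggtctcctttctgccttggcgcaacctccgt
Etfdh: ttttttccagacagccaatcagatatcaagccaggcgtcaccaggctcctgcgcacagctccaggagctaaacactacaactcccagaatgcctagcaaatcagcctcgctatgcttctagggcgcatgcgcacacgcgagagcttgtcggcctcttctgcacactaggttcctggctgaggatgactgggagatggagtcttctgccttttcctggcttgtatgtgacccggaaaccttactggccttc

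All 10 members were found in the promoter table and searched on both strands. The core motif AGGTCA occurred in the windows of Acadm, at 249 to 244 bases before the start on the reverse strand, and of Acadvl, at 87 to 82 bases before it. Of all 32851 promoters 14% hold it. The paired motif AGGTCANAGGTCA and the extended motif TCAAGGTCA, which both contain the core motif, and the looser pair AGGNCANAGGNCA, which can overlap it, were in 0.0335%, 0.387% and 0.338% of all promoters and in no member. The GC box was in 32.7% of promoters and in those of Acadl (4 matches), Acads (1), Acadsb (3) and Acad11 (1). The window of Etfdh held neither motif. TATAAA, in 12.4% of promoters, was in no member. A match of letters is a description and not a bound site, and these windows reach only 250 bases.

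Acadvl encodes the very long-chain acyl-CoA dehydrogenase of the inner mitochondrial membrane. Its probe set read 13.70, 13.90, 13.81 and 13.57 on the db/db arrays, against 13.27, 13.66, 13.53, 13.51 and 13.36 on the BKS arrays. The groups overlapped, since db/db 4 lay below BKS 2. The difference of 0.28 ± 0.11 (SE) did not pass the test (limma adjusted p = 0.205).

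Acadl encodes the long-chain acyl-CoA dehydrogenase, which in mouse liver handles straight-chain and branched fatty acids. It read 13.09, 13.27, 13.58 and 13.52 in db/db liver, against 12.54, 12.64, 12.83, 13.04 and 12.87 in BKS liver. The groups did not overlap, although db/db 1 was close to BKS 4. The mean rose to 13.37 ± 0.23 in db/db liver, against 12.78 ± 0.20 in BKS liver (SD, n = 4 and n = 5), a difference of 0.58 (95% interval 0.29 to 0.87, limma adjusted p = 0.0219). It was 0.52 among low-18S arrays and 0.60 among high-18S arrays. A fainter probe set of Acadl, with group means of 5.47 ± 0.35 in db/db liver and 5.23 ± 1.30 in BKS liver, gave a difference of 0.23 ± 0.57 (SE) that was not called. Averaging both probe sets of Acadl ended its call (0.41, limma adjusted p = 0.513). Leaving out BKS 1, db/db 3 or db/db 4 did so too (limma adjusted p 0.0519, 0.0837 and 0.0681).

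Acadm, whose human counterpart is defective in the common disorder of medium-chain fatty acid oxidation, had the smallest adjusted p of the members. Its probe set read 13.98, 14.12, 14.18 and 14.18 on the db/db arrays, against 13.59, 13.72, 13.51, 13.59 and 13.60 on the BKS arrays. The lowest db/db array was clear of the highest BKS array, and both groups were tight. The means were 14.11 ± 0.10 in db/db liver and 13.60 ± 0.07 in BKS liver (SD, n = 4 and n = 5). The difference was 0.51 (95% interval 0.31 to 0.71, limma adjusted p = 0.00571), with 0.44 in the low-18S set and 0.58 in the high-18S set. The call held with each of the 9 arrays left out in turn (limma adjusted p 0.00737 to 0.0235).

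Acads encodes the short-chain dehydrogenase. It read 12.07, 12.28, 12.74 and 12.44 in db/db liver, against 11.77, 11.63, 11.87, 11.98 and 12.24 in BKS liver. Among the BKS arrays only BKS 5 reached into the db/db range. The difference was 0.49 ± 0.15 (SE), nearly that of Acadm, but with a wider spread and no call (limma adjusted p = 0.0913). Acadsb encodes the short/branched-chain dehydrogenase of isoleucine breakdown. It was the only member with a negative difference: the arrays read 11.30, 11.61, 11.43 and 11.47 in db/db liver, against 11.61, 11.46, 11.24, 12.06 and 11.88 in BKS liver. The groups overlapped, and the difference of -0.20 ± 0.16 (SE) was not called (limma adjusted p = 0.585). It came to 0.02 in the low-18S set and -0.52 in the high-18S set. Its single probe set is of the kind (_x_at) whose probes can also match other transcripts.

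Acad10 and Acad11 encode larger proteins that carry a kinase-like domain beside the dehydrogenase domain and have been linked to hydroxylated fatty acids. Acad11 read 13.78, 13.88, 13.99 and 14.08 in db/db liver, against 13.26, 13.26, 13.53, 13.61 and 13.69 in BKS liver. The groups did not overlap, by a narrow margin between db/db 1 and BKS 5. The mean rose to 13.93 ± 0.13 in db/db liver, against 13.47 ± 0.20 in BKS liver (SD, n = 4 and n = 5), with a difference of 0.47 (95% interval 0.21 to 0.73, limma adjusted p = 0.0393). It was 0.48 in the low-18S set and 0.39 in the high-18S set. The second probe set of Acad11 gave 0.56 with no overlap. When single arrays were dropped, Acad11 kept its call only without BKS 5 or without db/db 1 and lost it in the other 7 fits (limma adjusted p up to 0.109).

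Acad10 had the second largest difference of the members on its brighter probe set. It read 9.82, 10.05, 10.70 and 10.47 in db/db liver, against 9.09, 9.39, 9.53, 9.76 and 10.10 in BKS liver. BKS 5 reached above db/db 1 and db/db 2, and the difference of 0.68 ± 0.22 (SE) was not called (limma adjusted p = 0.106). The second probe set of Acad10 had a difference of -0.40 ± 0.41 (SE), opposite in sign. That probe set is fainter (means 7.49 in db/db and 7.89 in BKS liver) and, like that of Acadsb, of the _x_at kind. There db/db 3 read 6.25, the lowest of all arrays, and the difference was 0.51 in the low-18S set and -1.46 in the high-18S set.

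**Figure D1:**
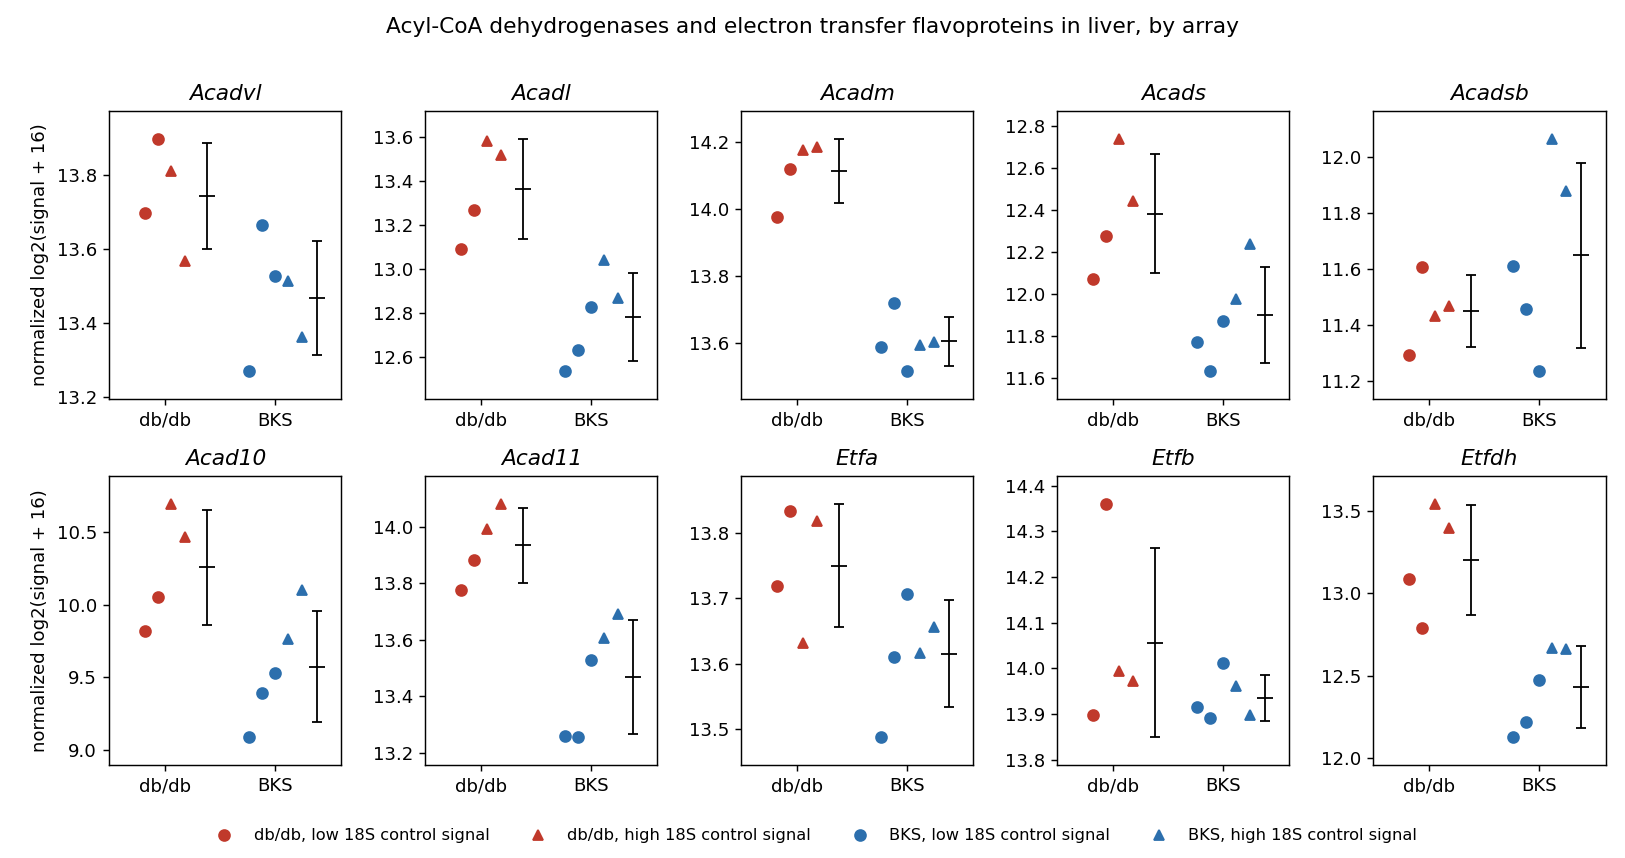
Normalized log2 signal of the 10 genes on each array, db/db left and BKS right in every panel; circles are arrays with low and triangles arrays with high 18S signal, and the bar and whiskers give the mean and SD. The db/db arrays lie above all BKS arrays for Acadl, Acadm, Acad11 and Etfdh.

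Neither ETF subunit was called. Etfa, the alpha subunit, read 13.72, 13.83, 13.63 and 13.82 in db/db liver, against 13.49, 13.61, 13.71, 13.62 and 13.66 in BKS liver. Etfb, the beta subunit, read 13.90, 14.36, 14.00 and 13.97 in db/db liver, against 13.91, 13.89, 14.01, 13.96 and 13.90 in BKS liver. Both groups overlapped for each gene, and db/db 2 stood above the rest for Etfb. The difference of Etfa was 0.13 (95% interval -0.07 to 0.34, limma adjusted p = 0.522). That of Etfb was 0.12 (95% interval -0.11 to 0.36, limma adjusted p = 0.637). Both intervals include 0, and changes of the size seen for Acadm, 0.51, lie outside them.

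Etfdh, the enzyme that receives the electrons of ETF, had the largest difference of the 10. It read 13.09, 12.79, 13.54 and 13.39 in db/db liver, against 12.13, 12.22, 12.47, 12.67 and 12.66 in BKS liver. No db/db array fell among the BKS arrays, db/db 2 being the nearest to them. The means were 13.20 ± 0.33 in db/db liver and 12.43 ± 0.25 in BKS liver (SD, n = 4 and n = 5). The difference was 0.77 (95% interval 0.42 to 1.13, limma adjusted p = 0.0145), with 0.67 in the low-18S set and 0.80 in the high-18S set. Leaving out db/db 3 or db/db 4 ended the call of Etfdh (limma adjusted p 0.0584 and 0.0501). A second, faint probe set gave 0.54 ± 0.37 (SE) and was not called.

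**Figure D2:**
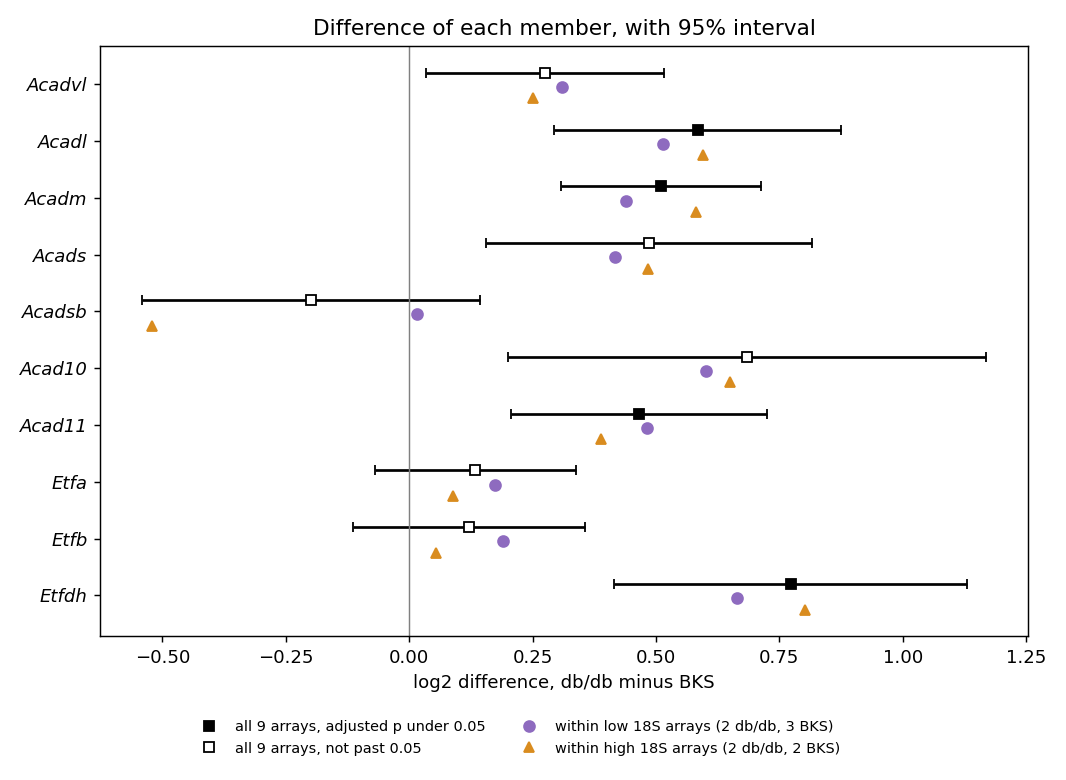
Difference of db/db minus BKS liver in log2 signal for the 10 genes, with 95% limma intervals; filled points passed the test (adjusted p under 0.05), and smaller marks give the difference within the low-18S arrays (circles) and the high-18S arrays (triangles). The intervals of Etfa and Etfb include 0, and the 4 filled points lie between 0.47 and 0.77.

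Taken probe set by probe set, 4 of the 14 rose and none fell, against 1.58% of all 45037 probe sets called higher. They were the single probe set of Acadm, the brighter probe sets of Acadl and Etfdh, and the second probe set of Acad11. The first of Acad11, called in the fit over genes, had an adjusted p of 0.0686 in the limma fit over all probe sets. Blocking on the 18S set gave 6 of the 10 members as risen, the added ones being Acads (0.45, limma adjusted p = 0.0196) and Acad10 (0.62, limma adjusted p = 0.0144). In that fit 4.11% of all genes were called higher. For Acadl, Acads, Acad10, Acad11 and Etfdh both high-18S arrays of a group read above the other arrays of that group. Both differences within sets were positive for 9 of the members, the exception being Acadsb. The share of all genes positive in both sets was not counted.

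In the deposited signals, before any step here, the groups overlapped for every probe set over all 9 arrays. For Acadm the db/db arrays ran from 14427.7 to 21146.1 and the BKS arrays from 10480.8 to 14442.6. For Etfdh they ran from 6637.2 to 13520.0 in db/db liver and from 4240.9 to 7126.3 in BKS liver. Within each 18S set the deposited signals of Acadm and of the brighter probe sets of Etfdh, Acadl and Acad11 did not overlap between the groups. Nor did those of Acads and of the brighter probe set of Acad10, which were not called. In the high-18S set Acadsb separated the other way (2750.7 to 2848.9 in db/db liver, 3828.9 to 4461.1 in BKS liver). So did the second probe set of Acad10, which was higher in db/db liver in the low-18S set. The share of all probe sets that separate within sets this small was not counted. For Etfdh the low-18S arrays read 6637.2 and 8318.7 in db/db liver against at most 5435.6 in BKS liver, and the high-18S arrays at least 11680.2 in db/db liver against at most 7126.3 in BKS liver. What the 18S split stands for was not tested.

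Ratios between members on the same array ask whether partners changed unequally. They were compared for 6 pairs, with an exact two-sided permutation test over the 126 splits of the arrays and p-values adjusted over the 6. The smallest p this design allows is 0.00794. Etfdh over Etfa was higher by 0.64 on the log2 scale in db/db liver, a 1.56-fold change in the ratio (95% interval 0.16 to 1.12, exact permutation p = 0.0317, adjusted p = 0.143). Etfdh over Etfb was higher by 0.65 (95% interval 0.03 to 1.20, exact permutation p = 0.0476, adjusted p = 0.143). Neither passed the correction. Without quantile normalization both reached an adjusted p of 0.0476 in the exact permutation test, as did Etfdh over Etfa with averaged probe sets.

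The ratio of the ETF subunits Etfa and Etfb differed by 0.01 between groups (95% interval -0.18 to 0.20, exact permutation p = 0.881). Among neighbours in chain length, Acadvl over Acadl was lower by 0.31 in db/db liver, which the test did not separate from 0 (difference -0.31, 95% interval -0.74 to 0.13, exact permutation p = 0.135, adjusted p = 0.270). Acadl over Acadm differed by 0.07 (95% interval -0.27 to 0.46) and Acadm over Acads by 0.02 (95% interval -0.38 to 0.40). These intervals still allow unequal changes of up to 0.46 on the log2 scale for the last pairs.

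**Figure D3:**
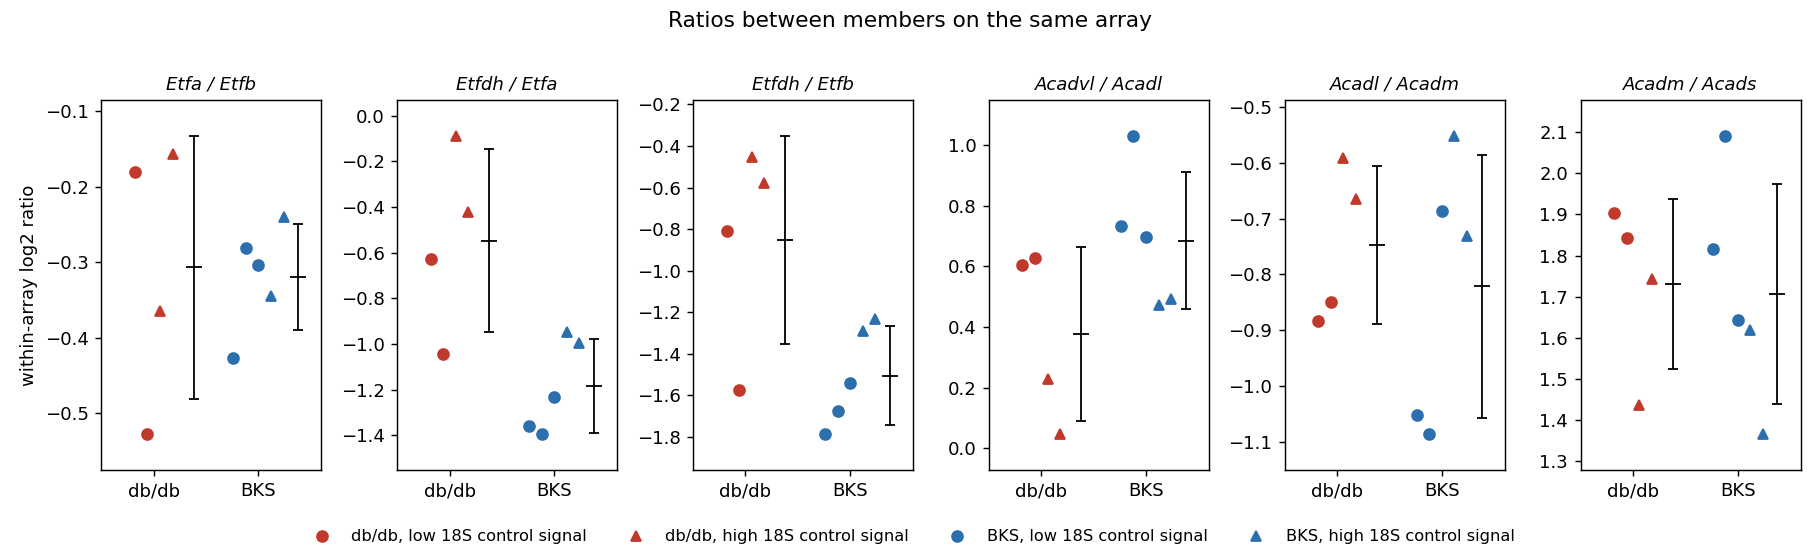
Within-array log2 ratios of 6 pairs of members, db/db left and BKS right, with group mean and SD; circles are low-18S and triangles high-18S arrays. The Etfdh ratios sit higher in db/db liver on average, with db/db 2 among the BKS arrays, and the groups overlap for the ratio of Etfa to Etfb.

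Other flavoproteins feed the same ETF. Of 8 measured, 3 rose and none fell, with a median difference of 0.28 against -0.0022 for all genes. Gcdh, the glutaryl-CoA dehydrogenase of lysine breakdown, rose 2.56-fold (difference 1.35, limma adjusted p = 6.49e-05). Sardh, which oxidises sarcosine in one-carbon metabolism, rose by 0.87 and Acad9, also an assembly factor of respiratory complex I, by 0.82 (limma adjusted p 0.00288 and 0.00203). These calls held with each array left out in turn, but averaging the probe sets of Acad9 ended its call (0.35, limma adjusted p = 0.458). Not called were Dmgdh (0.47), Acad8 (0.08), Ivd of leucine breakdown (-0.09), D2hgdh (-0.40) and Acad12 (-0.70). With the 18S block 4 were called higher and 1 lower, Dmgdh (0.42, limma adjusted p = 0.0276) and D2hgdh (-0.43, limma adjusted p = 0.04999) being added. D2hgdh was also called lower without BKS 2, and averaging its probe sets turned its sign.

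The carnitine shuttle brings long-chain acyl groups to the dehydrogenases. Of its 5 genes 4 rose and none fell, with a median of 0.64: Slc22a5, the plasma membrane carnitine transporter (1.00), Crat, carnitine acetyltransferase (0.93), Cpt2 (0.64) and Cpt1a (0.50), the carnitine palmitoyltransferases of the inner and the outer membrane. The carrier Slc25a20 had a difference of 0.50 that was not called. With 1 array left out, 2 to 3 of the 5 were called, and 2 were with averaged probe sets, 1 without the eBayes trend, and 0 among low-18S arrays alone or with the probe set of largest variance. Cpt1a was lost in 8 and Crat in 7 of the 9 fits. A second probe set of Cpt2 gave a difference of 0.00, and averaging probe sets gave 0.24 for Cpt1a and 0.50 for Crat.

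Of 10 genes of the later steps of mitochondrial beta-oxidation 6 rose and none fell, with a median of 0.39. The 4 with the smallest adjusted p were Eci2 (0.95) and Eci1 (0.81), the enoyl-CoA isomerases for unsaturated fatty acids, Hsd17b10 (0.79), a short-chain hydroxyacyl-CoA dehydrogenase, and Hadha (0.57), the alpha subunit of the trifunctional protein. The other two, named after their values were seen, were Hadhb (0.41) and the thiolase Acaa2 (0.34). Their calls were lost in 8 and 9 of the 9 fits without 1 array, so that 4 to 5 genes were then called. Without the eBayes trend 2 of the 10 were called, Eci1 and Eci2. Hadha and Hsd17b10 then lost their calls (limma adjusted p 0.0917 and 0.0601). Among low-18S and high-18S arrays alone 2 and 3 were called. Averaging the probe sets of Hadhb turned its sign (-0.08).

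In peroxisomes, where acyl-CoA oxidases hand electrons to oxygen and not to ETF, 2 of 7 measured genes rose and none fell, with a median of 0.40. They were Acaa1b, a thiolase (0.57), and Hsd17b4, the D-bifunctional protein (0.40), the call of Hsd17b4 being lost in 8 of 9 fits without 1 array. Without the eBayes trend, and among low-18S or high-18S arrays alone, limma called 0 of the 7. Ehhadh (0.60), Acox3 (0.48), Acaa1a (0.10), Scp2 (-0.02) and Acox2 (-0.11) were not called.

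Of 4 genes that supply flavin to these enzymes limma called 0, with 1 higher at an unadjusted p under 0.05: Slc25a32, the mitochondrial flavin carrier (0.66), the riboflavin transporter Slc52a3 (0.20), riboflavin kinase Rfk (0.19) and FAD synthase Flad1 (-0.17). Their median was 0.19. Among 4 modifiers, with a median of 0.39, 1 rose and 1 fell. Sirt3, the deacetylase of mitochondrial proteins that in mouse liver acts on long-chain acyl-CoA dehydrogenase, rose by 0.58 (limma adjusted p = 0.0114). Etfbkmt, which methylates the ETF beta subunit, fell by 0.87 (limma adjusted p = 0.0147), a call lost without db/db 3 (limma adjusted p = 0.0576). Neither call held without the eBayes trend (limma adjusted p 0.0894 for Sirt3 and 0.0843 for Etfbkmt) or among low-18S arrays alone. Sirt3 was also not called among high-18S arrays alone. Sirt5 (0.39) and Etfrf1 (0.38), an ETF regulator, were not called.

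Of 8 transcriptional regulators with described sites at dehydrogenase genes limma called 0, with 2 higher and 1 lower at an unadjusted p under 0.05, and their median was -0.07, but 0.18 with averaged probe sets, 0.58 when the most variable probe set stood for each gene, and 0.048 among low-18S arrays alone. Ppara had a difference of 0.54 and Ppargc1a of 0.71, and both were called higher with the 18S block (0.59 and 0.74, limma adjusted p 0.0265 and 0.0377). Esrra (0.37), Rxra (-0.07), Nr2f1 (-0.08), Nr2f2 (-0.25), Ppargc1b (-0.27) and Hnf4a (-0.35) were not called in either fit, and both of these other probe set rules turned the sign of Hnf4a and Nr2f2. Of 12 genes of other mitochondrial proteins, a short list chosen by name, limma called 0, with 1 higher at an unadjusted p under 0.05. Their median was 0.11, against 0.48 for the members, with Atp5f1a highest at 0.37 and Cs lowest at -0.23. That median was 0.014 with averaged probe sets and -0.064 with the probe set of largest variance. A change of mitochondrial RNA as a whole was not tested. With median centring in place of quantile normalization, 2 of 8 flavoproteins, 1 of 5 genes of the carnitine shuttle, 1 of 10 later steps, 0 of 7 peroxisomal genes and 0 of 4 modifiers were called by limma, all of them higher.

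**Figure D4:**
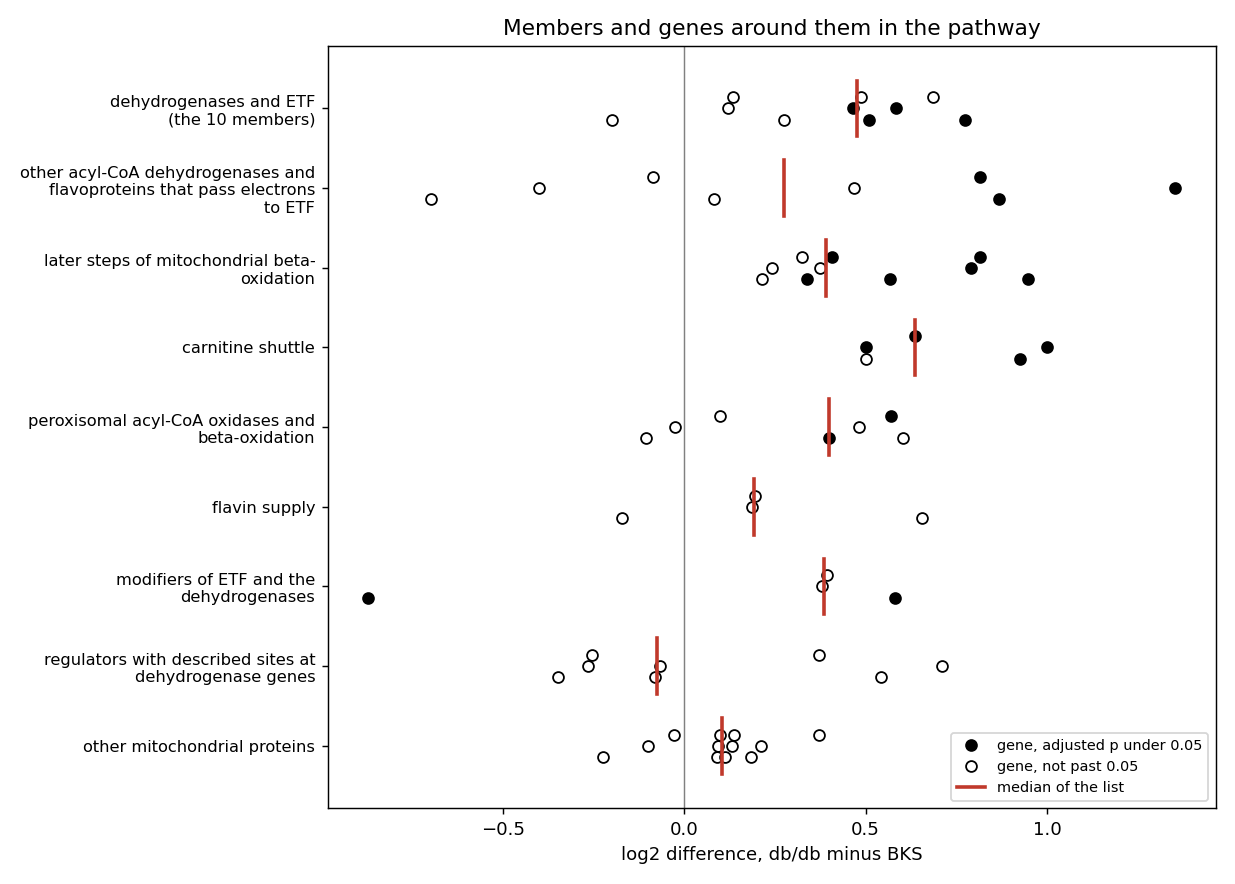
Difference of db/db minus BKS liver in log2 signal for each measured gene of the members and of the lists, 1 row per list, with the list's median as a red line and called genes filled. The medians run from -0.07 for the regulators, whose sign turns under other probe set rules and among low-18S arrays alone, to 0.64 for the carnitine shuttle.

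Markers of other cell types were measured beside these genes. Of 8 macrophage and Kupffer cell markers limma called 0, with 4 lower at an unadjusted p under 0.05 and 2 called lower with the 18S block, a median of -0.60 and a summed signal of 3414 to 8311 in db/db liver and 5776 to 16016 in BKS liver. These sums also followed the 18S split, with 3414 to 7134 on high-18S arrays and 7907 to 16016 on low-18S arrays. By limma 0 markers were called for endothelial cells (median 0.016, 2 higher at an unadjusted p under 0.05), stellate cells (0.15, 2 higher), cholangiocytes (-0.77, 2 lower), leukocytes (-0.62, 0), adipocytes (0.028, 0) and skeletal muscle (-0.34, 0). With the 18S block, limma called the macrophage markers Adgre1 (-0.62) and Cd5l (-0.87) and the cholangiocyte marker Sox9 (-1.59) lower, and the endothelial marker Pecam1 (1.64) and the stellate marker Lrat (0.98) higher (adjusted p 0.0364, 0.0249, 0.0268, 0.0470 and 0.0398, all chosen for their calls). Of 2 measured red-cell markers (median -0.57), Alas2 fell by 1.20 (limma adjusted p = 0.0114). The other, Hba-a1, had a difference of 0.07 and was not called. The part of other cells in the differences of the members was not tested.

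Likeness between genes was measured as the root mean square difference of log2 signals over the 9 arrays after centring each gene on its mean. The nearest genes to Acadm were Pcsk7 (0.07), F11r (0.09), Bmp1 (0.09), Prodh (0.09) and Rmnd5a (0.10). The nearest to Etfdh were Fabp2 (0.11), Ubxn8 (0.11), BC049762 (0.12), Nudt9 (0.12) and Kcnn2 (0.12). Within the members the closest pairs were Acadl with Acad11 and Etfa with Etfb, both at 0.11. These are descriptions over 9 arrays that share the group difference and the 18S split.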

How the data were processed

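Total RNA of liver (8 µg from aliquots of 100 mg) was labelled with biotin for single-colour Affymetrix arrays, per the labels' protocols. The deposited table holds 1 linear intensity per probe set for 9 arrays. In the deposited intensity values the mean trimmed by 2% at each end was 500.003 to 500.005 on every array. The sources used here do not give the software or the background correction. No detection calls were used, so no probe set could be placed above or below background. The number of arrays limits precision.

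Intensities were transformed as log2(value + 16). The array medians spanned 0.60, above the limit of 0.25, so the 9 arrays were quantile normalized over all 45101 probe sets (limma 3.58.1, R 4.3.3). Of these, 64 were controls, 34945 had 1 gene symbol, 932 several and 9160 none listed; 34741 of those with 1 symbol matched RefSeq by gene identifier. A gene is its brightest probe set with 1 symbol. limma (lmFit, eBayes with a trend, two-sided, group only) was run over 18193 genes, and again over 45037 probe sets, with Benjamini-Hochberg adjustment at 0.05. The script was tested on simulated data. Differences within an 18S set are of values normalized over all arrays.

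The members and the gene lists were chosen with earlier results of these data known. The rule named all members, every gene of lists of up to 8 genes, 4 per direction of longer lists, and the 5 genes most like Acadm and Etfdh. Replicate numbers were checked as pairs: same-numbered samples had correlations of deviations of 0.03, 0.17, -0.07 and 0.13, so they were not taken as pairs. Alternatives covered normalization, pseudocount, the 18S split, eBayes settings, probe set rule, a filter on dim genes, the replicate block and each array left out.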

Additional observations from a re-analysis of the deposited data

How the results depend on the processing

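The count of members called was 4. It was 0 with median centring, with no normalization beyond the deposited scaling, among low-18S arrays alone and without the eBayes trend, 1 (Etfdh) among high-18S arrays alone, 6 with the 18S block, 6 with the replicate block, and 3 with averaged probe sets or the probe set of largest variance, both without Acadl. Leaving out 1 array gave 1 to 6 members. The lowest count, Acadm alone, came without db/db 3 or db/db 4, the highest without BKS 5, and without BKS 1 it was 2. Of the 14 member probe sets 4 were called, 0 with median centring, no normalization, low-18S arrays alone or no trend, 1 among high-18S arrays alone, 7 with the 18S block, 7 with the replicate block and 0 to 4 with 1 array left out. Of all genes 999 were called, 535 with median centring, 436 and 465 in the low-18S and high-18S arrays alone, 466 without the trend, 630 with the probe set of largest variance, 1498 with the 18S block, 1141 with the replicate block, and 592 (without db/db 3) to 929 with 1 array left out. Calls over all genes numbered 918 with no normalization beyond the deposited scaling and 679 with averaged probe sets. For probe sets, the share of all of them called under these alternatives was not counted. The replicate numbers do not pair the samples, and the replicate block is given for completeness.

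The sign turned for Acadsb among low-18S arrays alone (0.014), and for Acad10 (-0.40) with the probe set of largest variance. It turned for Hadhb with averaged probe sets (-0.083) and with the probe set of largest variance (-0.32). The ratio of Acadm to Acads was -0.012 with median centring and with no normalization, and -0.059 to 0.13 with 1 array left out. The ratio of Acadl to Acadm was -0.10 with averaged probe sets and -0.28 with the probe set of largest variance, where Acadvl over Acadl was 0.042. Etfa over Etfb ran from -0.038 to 0.087 with 1 array left out. The ratios Etfdh over Etfa and Etfdh over Etfb passed the correction without quantile normalization (median centring and no normalization give the same within-array ratios, so they are 1 test here), and Etfdh over Etfa also with averaged probe sets. The cause of these changes was not tested. Fewer arrays enter the fits on 1 set. With 9 arrays and no detection calls, small changes and dim probe sets are poorly resolved.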
